A study of Arabidopsis thaliana with 72 samples.

Results

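The enzymes that make anthocyanin pigments were examined across 71 RNA-seq libraries of whole Arabidopsis thaliana seedlings. The set holds 10 of the 27206 loci in the deposited count table, chosen by locus identifier. They are CHS (AT5G13930), TT5 (AT3G55120), F3H (AT3G51240), F3'H (AT5G07990), DFR (AT5G42800), LDOX (AT4G22880), UGT79B1 (AT5G54060), UGT75C1 (AT4G14090), 3AT1 (AT1G03940) and TT19 (AT5G17220). Of these, 9 passed the filter on low counts and were tested, and F3H did not.

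Anthocyanins are red to purple flavonoids of the vacuole, and seedlings build them up under jasmonate, strong light, sugar or a shortage of phosphate. CHS joins a phenylpropanoid unit to malonyl units, and TT5 (chalcone isomerase), F3H and F3'H (hydroxylases) carry the product to the dihydroflavonols, which flavonols share. DFR and LDOX (a reductase and a dioxygenase) open the branch to anthocyanidins, UGT79B1, UGT75C1 and 3AT1 add sugars and an acyl group, and TT19, a glutathione S-transferase, is needed to bring the pigment to the vacuole. In Arabidopsis the late steps are switched on by complexes of a MYB such as MYB75 with the bHLH factor TT8 and the repeat protein TTG1, and jasmonate frees these factors from JAZ repressors.

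The groups combined the double mutant phr1 phl1 or the wild type Col-0 with low or high phosphate (Pi) and with MeJA, flg22 or no treatment. PHR1 and PHL1 are MYB transcription factors that switch on genes of phosphate starvation, and the double mutant carries lesions in both, whose alleles the labels do not name. All seedlings, controls included, grew for 7 days on Johnson medium with 1 mM Pi and 1% sucrose, with 9 h light and 15 h darkness each day. They were then moved for 12 days to low Pi (about 5 µM, traces in the agar) or high Pi (1 mM). The new medium held 10 µM methyl jasmonate (MeJA), 1 µM flg22 (a peptide of bacterial flagellin that plants sense) or no addition. Each of the 12 groups had 6 libraries, described by the submitters as biological replicates, 3 from each of 2 independent experiments, A and B. Whether the replicates of an experiment were grown as separate cultures is not stated, and every p-value therefore covers the variation among these libraries alone, some of which may be technical.

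Total counts were 692426 to 6883818 per library, and those of Col-0 high Pi with MeJA were the lowest, at 692426 to 2403150. Library B1 of the group labelled phr1 phl1 high Pi untreated was left out of every level and comparison unless it is named. In counts scaled to a common library size (CPM), it held 68.6 CPM of PHR1, against 12.9 to 44.5 CPM in the other 35 phr1 phl1 libraries and 49.0 to 74.0 CPM in the 36 Col-0 libraries. It held 20.3 CPM of PHL1, against 30.9 to 127 CPM in the other phr1 phl1 libraries and 6.59 to 20.3 CPM in Col-0. Its levels went against its label for both genes. With it returned to its group, the number of members called was the same in all comparisons but 3, which are named beside their results. Markers of green tissue and of root, both parts of a whole seedling, were read in every group, and no marker was at 0 in all libraries of a group.

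The annotated genes lie on chromosomes 1, 3, 4 and 5. The early genes are CHS at chr5:4488476-4490264 on the plus strand, TT5 at chr3:20430059-20431597 on the minus strand, F3H at chr3:19025192-19026872 on the plus strand and F3'H at chr5:2560328-2563137 on the plus strand. DFR lies at chr5:17164093-17166032, LDOX at chr4:12004726-12006209, UGT79B1 at chr5:21936746-21938396, UGT75C1 at chr4:8122188-8123835 and 3AT1 at chr1:1009228-1011145, all on the minus strand, and TT19 at chr5:5658416-5659661 on the plus strand. The 250 bases before the start of each gene were read from the RefSeq assembly TAIR10.1, on the gene's strand, since the files name the build TAIR10. They are shown for DFR, LDOX and UGT79B1, late genes whose levels spanned a wide range over the groups, for CHS, whose range was narrow, and for F3'H, the member with a match to the PHR1 site. The regions are chr5:17166033-17166282 for DFR, chr4:12006210-12006459 for LDOX and chr5:21938397-21938646 for UGT79B1, all on the minus strand, and chr5:4488226-4488475 for CHS and chr5:2560078-2560327 for F3'H, on the plus strand. Capitals mark a G-box (CACGTG), the site of bHLH and bZIP factors, or, in F3'H, a P1BS site (GNATATNC), the sequence that PHR1 binds.
DFR: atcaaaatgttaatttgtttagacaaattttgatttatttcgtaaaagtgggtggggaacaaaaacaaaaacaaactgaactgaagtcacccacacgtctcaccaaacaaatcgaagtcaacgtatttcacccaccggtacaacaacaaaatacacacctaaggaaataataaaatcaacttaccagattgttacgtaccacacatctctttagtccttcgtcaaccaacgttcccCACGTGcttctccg
LDOX: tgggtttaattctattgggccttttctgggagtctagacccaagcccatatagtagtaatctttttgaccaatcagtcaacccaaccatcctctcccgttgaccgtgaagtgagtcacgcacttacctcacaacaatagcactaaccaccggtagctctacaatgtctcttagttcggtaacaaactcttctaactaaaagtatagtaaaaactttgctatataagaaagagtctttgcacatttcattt
UGT79B1: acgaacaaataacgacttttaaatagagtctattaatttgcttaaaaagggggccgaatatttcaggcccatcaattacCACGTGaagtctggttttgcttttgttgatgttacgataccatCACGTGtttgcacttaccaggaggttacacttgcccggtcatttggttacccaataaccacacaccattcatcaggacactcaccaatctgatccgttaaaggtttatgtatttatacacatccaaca
CHS: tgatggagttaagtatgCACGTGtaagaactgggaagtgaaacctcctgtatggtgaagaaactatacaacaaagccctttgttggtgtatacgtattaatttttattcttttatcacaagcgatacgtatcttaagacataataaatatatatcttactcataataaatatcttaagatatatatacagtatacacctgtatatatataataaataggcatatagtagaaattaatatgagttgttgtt
F3'H: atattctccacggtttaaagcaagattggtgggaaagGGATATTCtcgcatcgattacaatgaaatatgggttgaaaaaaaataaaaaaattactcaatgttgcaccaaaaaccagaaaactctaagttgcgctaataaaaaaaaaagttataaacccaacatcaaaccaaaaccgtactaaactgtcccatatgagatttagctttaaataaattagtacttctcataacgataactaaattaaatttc
A G-box was found on either strand in 4 of the 10 members (CHS, F3H, DFR and UGT79B1, which had 2), and in 6.49% of the 27443 regions of the same length before annotated protein-coding genes. A P1BS site stood before 1 member and before 5.46% of protein-coding genes. The other motifs searched on both strands were AACGTG, with 0 of 10 members and 7.54% of protein-coding genes, ACCTACC, with 0 of 10 and 1.16%, and ACCAACC, with 1 of 10 (UGT75C1) and 2.69%. A match is a run of letters and not a bound site, and the window of LDOX held no match to any of these motifs.

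Levels per length set CHS apart from the rest. Averaged over the 12 groups, CHS stood at 209.3 CPM per kb of exon, DFR at 50.8, LDOX at 35.0, TT5 at 29.2, TT19 at 23.4, UGT75C1 at 13.9, UGT79B1 at 8.63, F3'H at 7.05 and 3AT1 at 4.09 CPM per kb. F3H stood at 0.562 CPM per kb, with 0 to 18 counts in a library, a median of 2, and 10 of 71 libraries at 0. Its group means lay between 0.222 CPM in Col-0 low Pi flg22 and 1.96 CPM in Col-0 high Pi MeJA, and no change of F3H could be resolved at this depth. Of the 1681 bases of the annotated F3H gene, 1588 are also covered by AT3G51238, a non-coding RNA gene on the other strand that has no row in the count table. The libraries did not keep strand, and how reads in such an overlap were counted was not tested. UGT75C1 shares 230 bases with AT4G14100 and TT19 shares 108 bases with AT5G17230, both on the opposite strand. 3AT1 has a close paralog, 3AT2, so reads shared by both could have been split or dropped, and its values are uncertain to that degree.

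For all 10 members the highest group mean was that of Col-0 high Pi MeJA. DFR averaged 103 ± 46.9 CPM in phr1 phl1 low Pi MeJA, 215 ± 66.6 in phr1 phl1 high Pi MeJA, 196 ± 83.3 in Col-0 low Pi MeJA and 283 ± 69.5 in Col-0 high Pi MeJA (SD, n = 6 each). With flg22 the DFR means were 2.67 ± 1.52 CPM in phr1 phl1 low Pi, 17.9 ± 15.2 in phr1 phl1 high Pi, 24.6 ± 27.1 in Col-0 low Pi and 45.5 ± 46.9 in Col-0 high Pi. Untreated, they were 2.89 ± 1.40 CPM in phr1 phl1 low Pi, 15.2 ± 8.40 in phr1 phl1 high Pi (n = 5), 9.35 ± 6.04 in Col-0 low Pi and 11.9 ± 3.92 in Col-0 high Pi. Sorted by mean, each group's DFR libraries overlapped those of the next group, so the order of neighbours is not resolved by these ranges.

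The range over the groups was wider for the late members. The highest group mean over the lowest was 160 for UGT79B1, 106 for DFR, 101 for TT19, 97.9 for LDOX, 33.9 for UGT75C1 and 14.3 for 3AT1. For the early enzymes it was 12.7 for F3'H, 5.90 for CHS and 5.48 for TT5. The lowest means of UGT79B1 and TT19 were 0.408 and 0.991 CPM, both in phr1 phl1 low Pi flg22. Each had a library at 0 there, so the ratios of these genes rest on few counts and are imprecise. Across the 12 group means, log2 levels of the 6 late members (DFR onward) were correlated at Pearson r = 0.947 to 0.994 in their 15 pairs, and the 3 early members at 0.858 to 0.909 in 3 pairs. Early with late members gave 0.634 to 0.955 in 18 pairs. These are descriptions over 12 points that share libraries and depth.

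**Figure D1:**
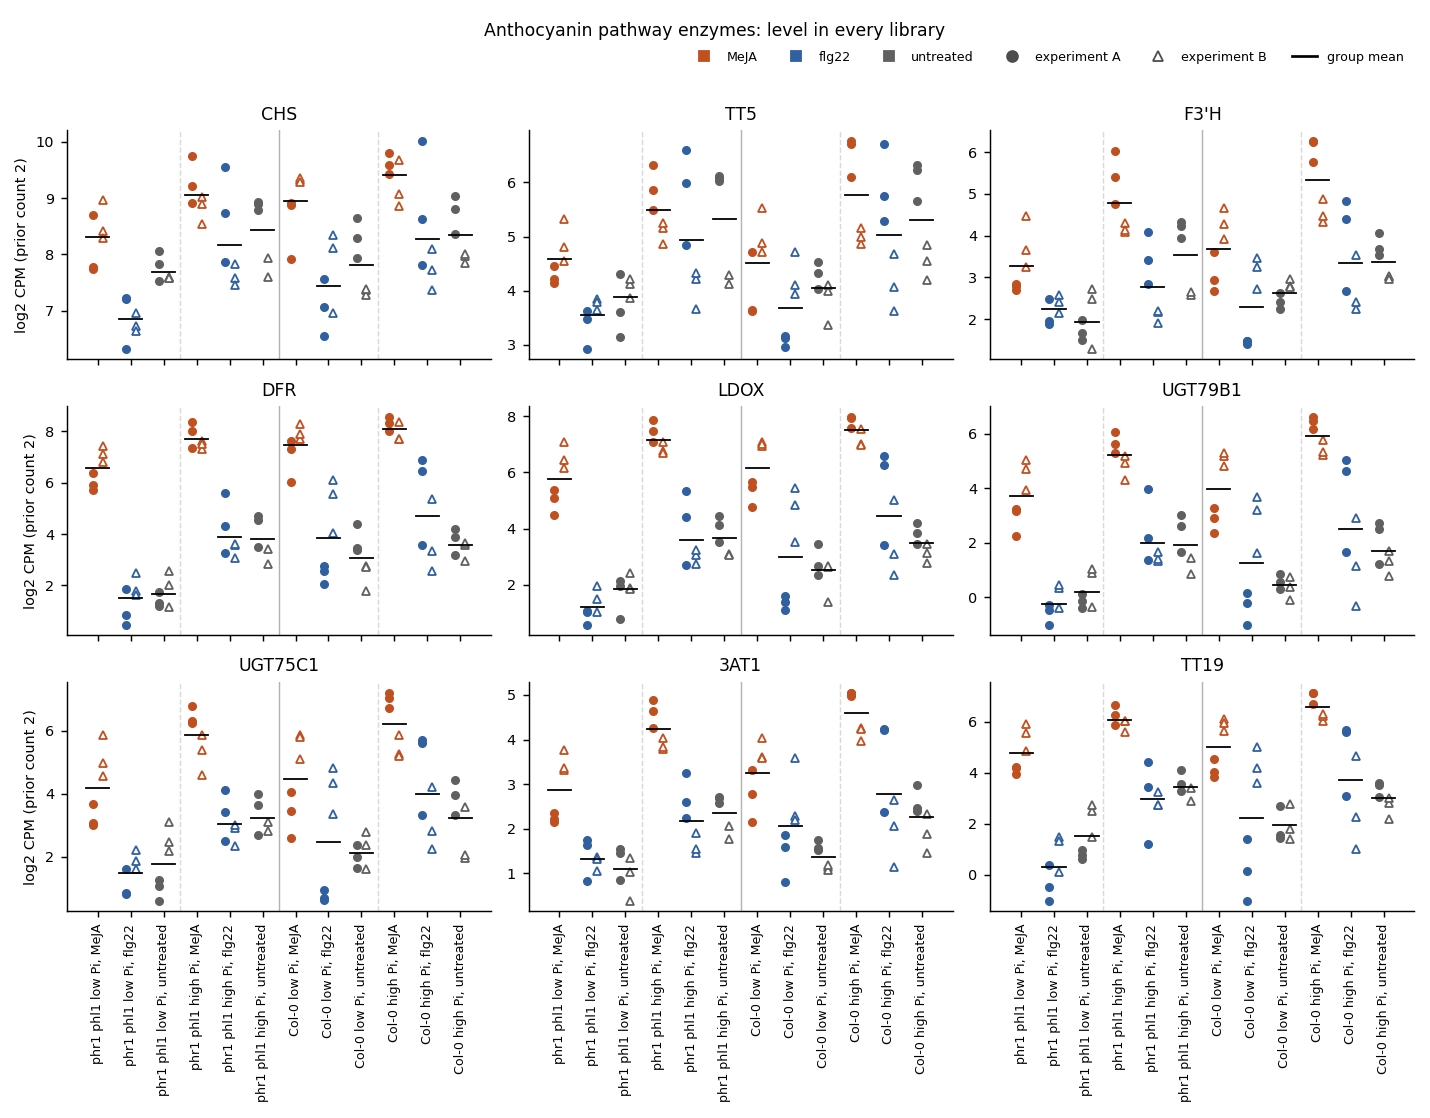
Level of the 9 tested members as log2 CPM in each of the 71 libraries, 1 panel a gene with its own vertical axis, groups along the horizontal axis; filled circles are experiment A, open triangles experiment B, and bars group means. Col-0 high Pi MeJA has the highest mean in every panel, DFR averaging 283 CPM in Col-0 high Pi MeJA against 11.9 CPM in Col-0 high Pi untreated, and the flg22 groups of Col-0 are widely spread.

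MeJA was compared with no treatment within each genotype and Pi supply, to ask whether the hormone moves the pathway in each of the 4 settings. All 6 late members rose in all 4 settings, and F3'H did too, while CHS rose in Col-0 and TT5 passed the test in none. DFR, the first enzyme of the pigment branch, had a lowest, median and highest level of 52.2, 97.5 and 173 CPM in phr1 phl1 low Pi MeJA, against 1.75, 2.43 and 5.39 CPM in phr1 phl1 low Pi untreated. In phr1 phl1 high Pi these were 159.6, 189 and 331 CPM with MeJA, against 22.8, 10.9, 25.6, 6.61 and 10.3 CPM in the 5 untreated libraries. In Col-0 low Pi they were 64.7, 201 and 316 CPM with MeJA, against 3.0, 8.08 and 20.3 CPM untreated, and in Col-0 high Pi 206, 288 and 379 CPM, against 7.30, 11.8 and 18.1 CPM. In every setting each MeJA library was above each untreated one. The log2 fold changes of DFR were 5.19 ± 0.66, adjusted p = 3.7e-09 in phr1 phl1 low Pi, 3.79 ± 0.57, adjusted p = 4.2e-07 in phr1 phl1 high Pi, 4.33 ± 0.56, adjusted p = 6.6e-09 in Col-0 low Pi and 4.53 ± 0.56, adjusted p = 1.9e-09 in Col-0 high Pi (± SE, edgeR's quasi-likelihood test).

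In numbers, 7 of 9 members rose with MeJA in phr1 phl1 low Pi, where 9.97% of all 18693 genes tested rose, and 7 in phr1 phl1 high Pi, where 9.92% did. In Col-0 low Pi 8 rose, beside 8.21% of all genes, and in Col-0 high Pi 8 rose, beside 7.71%. No member fell, while 7.03%, 8.31%, 6% and 5.52% of all genes did in that order. The median log2 change of the 9 was 2.77, 2.61, 2.81 and 2.97 in these 4 settings, while that of all genes was -0.02, -0.02, -0.01 and -0.03. The MeJA and untreated libraries did not overlap for 5 members in phr1 phl1 low Pi, where 5.91% of all genes stood apart upwards, and for 6 in phr1 phl1 high Pi (6.21%). In Col-0 they did not overlap for 5 at low Pi (4.94%) and for 7 at high Pi (4.37%).

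LDOX, which follows DFR, rose by a log2 change of 4.32 ± 0.66 in phr1 phl1 low Pi, 3.47 ± 0.58 in phr1 phl1 high Pi, 3.78 ± 0.59 in Col-0 low Pi and 4.03 ± 0.56 in Col-0 high Pi. Its libraries spanned 124 to 252 CPM in Col-0 high Pi MeJA, against 6.39 to 17.9 CPM in Col-0 high Pi untreated. UGT79B1, which adds xylose to the anthocyanin's glucose, changed by 4.52 ± 0.85, 3.30 ± 0.62, 4.40 ± 0.77 and 4.36 ± 0.62 in the same order of settings. Its libraries spanned 37.0 to 98.6 CPM in Col-0 high Pi MeJA, against 1.22 to 6.10 CPM in Col-0 high Pi untreated. The libraries of these genes did not overlap between MeJA and untreated Col-0 at high Pi.

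The remaining late members had lower fold changes than DFR in each setting. TT19 changed by 3.53 ± 0.66, 2.61 ± 0.55, 3.29 ± 0.61 and 3.62 ± 0.55 in phr1 phl1 low Pi, phr1 phl1 high Pi, Col-0 low Pi and Col-0 high Pi. UGT75C1, a glucosyltransferase, changed by 2.77 ± 0.68, 2.73 ± 0.60, 2.81 ± 0.64 and 2.97 ± 0.57 in that order. 3AT1, which adds a coumaroyl group, changed by 2.12 ± 0.45, 1.97 ± 0.37, 2.22 ± 0.41 and 2.49 ± 0.37. All were past the threshold, with an adjusted p of 5.1e-07 for TT19, 6.4e-05 for UGT75C1 and 3e-07 for 3AT1 in Col-0 high Pi (edgeR).

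Among the early enzymes F3'H, which sets the hydroxyl pattern of cyanidin, rose by 1.59 ± 0.50, adjusted p = 0.019 in phr1 phl1 low Pi, 1.25 ± 0.40, adjusted p = 0.021 in phr1 phl1 high Pi, 1.31 ± 0.45, adjusted p = 0.037 in Col-0 low Pi and 2.15 ± 0.41, adjusted p = 5.4e-05 in Col-0 high Pi (edgeR). CHS, the entry enzyme, rose by 1.21 ± 0.33, adjusted p = 0.0051 in Col-0 low Pi and 1.05 ± 0.32, adjusted p = 0.019 in Col-0 high Pi. In the mutant its change was 0.72 ± 0.32, adjusted p = 0.12 at low Pi and 0.65 ± 0.34, adjusted p = 0.19 at high Pi, not past the threshold of 0.05. CHS had 214, 326 and 498 CPM (lowest, median and highest) in phr1 phl1 low Pi MeJA, against 184, 192 and 266 CPM in phr1 phl1 low Pi untreated, with overlap. TT5 changed by 0.80, 0.08, 0.69 and 0.49 in the 4 settings, with adjusted p = 0.22, 0.94, 0.35 and 0.51 (edgeR). The CHS call in Col-0 high Pi was lost without B1 of the MeJA group (adjusted p = 0.052). That of F3'H was lost in phr1 phl1 low Pi without A2 untreated or B1 with MeJA, and in phr1 phl1 high Pi without A3 with MeJA or B2 or B3 untreated, or with the left-out library in the fit (adjusted p = 0.064). In Col-0 low Pi it was lost without any 1 of A1, A2 and A3 untreated or of B1, B2 and B3 with MeJA, with adjusted p up to 0.13.

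Both experiments gave calls. With 3 libraries a group, 5 members rose in experiment A alone and 9 in B alone in phr1 phl1 low Pi, where 6.01% and 10.3% of all genes rose. The counts were 7 and 9 in phr1 phl1 high Pi (8.98% and 7.52%), 5 and 9 in Col-0 low Pi (6.9% and 6.91%) and 7 and 8 in Col-0 high Pi (7.51% and 5.83%). The median change of the members in Col-0 low Pi was 1.64 in A and 3.38 in B, and that of DFR was 3.35 and 5.57. Except for TT5 in Col-0 high Pi, the early enzymes that missed the threshold over both experiments passed it in B alone. TT5 rose there by 0.90 in phr1 phl1 low Pi (adjusted p = 0.014), 0.92 in phr1 phl1 high Pi (0.028) and 1.31 in Col-0 low Pi (0.00042), by edgeR. Its changes in A alone were 0.54, -0.14 and -0.14. CHS rose in B alone by 1.03 in phr1 phl1 low Pi (adjusted p = 0.0018) and 1.07 in phr1 phl1 high Pi (0.0059), against 0.31 and 0.49 in A alone (edgeR).

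The difference between MeJA responses was tested as such. None of the 9 members differed in its MeJA response between low and high Pi in phr1 phl1 or in Col-0 (edgeR, 0 of 9 with an unadjusted p under 0.05 in each, 0 by DESeq2), and 0% and 0.0107% of all genes did. None differed between phr1 phl1 and Col-0 at low Pi or at high Pi (0 of 9 unadjusted in each, 0 by DESeq2), beside 0.016% and 0% of all genes. The calls of CHS in Col-0 and not in the mutant therefore do not show that CHS responded differently in them. In Col-0 the members' median difference in MeJA response, low minus high Pi, was -1.35 in A alone and 0.69 in B alone. For phr1 phl1 minus Col-0 at low Pi it was 0.84 in A alone and -0.41 in B alone. The fit over both experiments averages these opposite signs, so it does not show that these responses were alike.

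Markers of tissue moved with MeJA as well. Of the 12 green tissue markers, 3, 3, 4 and 5 fell in phr1 phl1 low Pi, phr1 phl1 high Pi, Col-0 low Pi and Col-0 high Pi, and none rose. Of all genes, 7.03%, 8.31%, 6% and 5.52% fell in these settings. The summed level of the list was 40160 to 51433 CPM in phr1 phl1 low Pi MeJA, against 41061 to 70149 CPM in phr1 phl1 low Pi untreated. In Col-0 high Pi it was 52860 to 74123 CPM with MeJA, against 66602 to 86153 CPM untreated. Of the 10 root markers tested, 3 and 2 rose in the mutant at low and high Pi, where 9.97% and 9.92% of all genes rose, and 3 and 1 fell in Col-0. The root list of 12 summed to 137 to 209 CPM in phr1 phl1 low Pi MeJA, against 138 to 170.2 CPM in phr1 phl1 low Pi untreated, and to 150.5 to 168 CPM in Col-0 high Pi MeJA, against 137.9 to 242 CPM in Col-0 high Pi untreated. In whole seedlings, fewer cells of a type and less RNA per cell cannot be told apart, and the part of these markers in the results was not tested.

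**Figure D2:**
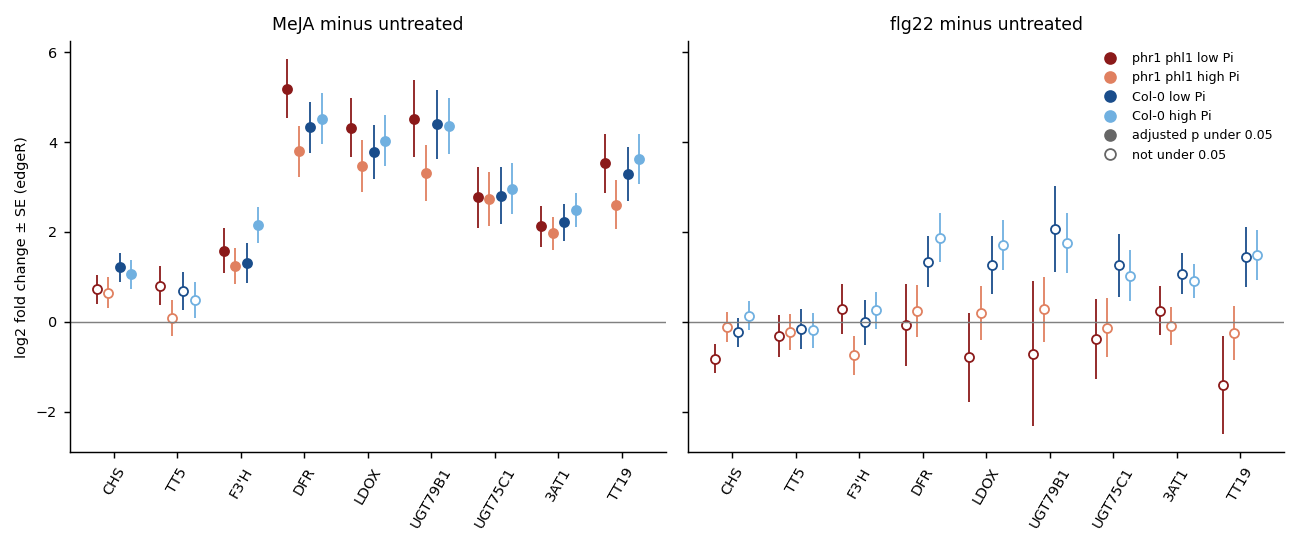
log2 fold change of each tested member (vertical axis, ± SE from edgeR) with MeJA, left, and flg22, right, in 4 settings of genotype and Pi; filled points have an adjusted p under 0.05. DFR has MeJA changes of 3.79 to 5.19, TT5 stays at 0.80 or below, and no flg22 point is filled.

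The rest of the pathway was followed with lists taken from textbook knowledge. Of 11 tested enzymes that make other flavonoids or finish the pigment, 6, 3, 4 and 3 rose with MeJA in phr1 phl1 low Pi, phr1 phl1 high Pi, Col-0 low Pi and Col-0 high Pi, and none fell. In these settings 9.97%, 9.92%, 8.21% and 7.71% of all genes rose. 5MAT, which malonylates the anthocyanin, rose by 3.58 ± 0.68, adjusted p = 5.2e-05 in phr1 phl1 low Pi, 2.79 ± 0.54, adjusted p = 5.8e-05 in phr1 phl1 high Pi, 2.98 ± 0.61, adjusted p = 0.00016 in Col-0 low Pi and 3.49 ± 0.53, adjusted p = 6.1e-07 in Col-0 high Pi (edgeR). 3AT2, the paralog of 3AT1, rose by 1.67, 2.16, 1.86 and 2.72 in that order. UGT78D1, a flavonol rhamnosyltransferase, rose by 1.39 in phr1 phl1 low Pi, 1.56 in Col-0 low Pi and 0.90 in Col-0 high Pi.

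Of the 8 phenylpropanoid genes that feed the pathway, 1, 2, 1 and 2 rose with MeJA in the same settings and none fell. Of all genes, 9.97%, 9.92%, 8.21% and 7.71% rose there. 4CL2, a coumarate-CoA ligase, rose in all 4, by 0.94, 0.66, 0.67 and 0.44. PAL3, a phenylalanine ammonia-lyase, rose at high Pi, by 0.70 in phr1 phl1 and 0.62 in Col-0. Of 15 tested regulators, 5, 4, 3 and 6 rose and 0, 3, 1 and 1 fell, where 7.03%, 8.31%, 6% and 5.52% of all genes fell. MYB75, an activator of the late genes, rose by 3.19 ± 0.80, adjusted p = 0.0024 in phr1 phl1 low Pi, 2.28 ± 0.57, adjusted p = 0.0024 in phr1 phl1 high Pi, 4.08 ± 0.84, adjusted p = 0.00017 in Col-0 low Pi and 2.76 ± 0.55, adjusted p = 0.00013 in Col-0 high Pi (edgeR). TT8 rose by 3.85, 2.47, 3.05 and 3.32 in that order. MYB111, an activator of flavonol genes, fell at high Pi, with log2 changes of -1.68 in phr1 phl1 and -1.84 in Col-0.

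The bacterial peptide flg22 was compared with no treatment in the same settings. None of the 9 members passed the test in any of the 4 settings (edgeR), where 3.38% of all genes changed in phr1 phl1 low Pi, 4.62% in phr1 phl1 high Pi, 4.45% in Col-0 low Pi and 0.979% in Col-0 high Pi. With an unadjusted p under 0.05 there were 1, 0, 4 and 5 members in these settings, and DESeq2 called 0, 0, 0 and 1. The share of all genes under these other rules is not given, so these counts cannot be read as a result about the members. The median log2 change of the members was -0.39 and -0.12 in the mutant and 1.26 and 1.03 in Col-0, at low and high Pi, beside -0.01, -0.01, 0.00 and -0.01 for all genes.

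The libraries of Col-0 with flg22 fell into high and low ones for the late genes. In Col-0 high Pi flg22, DFR had 87.5, 11.6 and 117 CPM in A1, A2 and A3 and 5.48, 41.2 and 9.73 CPM in B1, B2 and B3. In Col-0 high Pi untreated it had 14.2, 18.1 and 8.5 CPM in the A libraries and 11.4, 7.30 and 12.2 CPM in the B libraries. Libraries A1, A3 and B2 with flg22 were above every untreated one, and A2, B1 and B3 were not. TT19 followed the same split, with 48.7, 8.13 and 50.8 CPM in the A libraries and 1.52, 24.7 and 4.29 CPM in the B libraries with flg22, against 4.11 to 11.6 CPM in untreated ones. The DFR change was 1.87 ± 0.54, adjusted p = 0.072 and that of TT19 1.48 ± 0.56, adjusted p = 0.19 (edgeR). DFR passed the test without A2, B1 or B3 of the flg22 group.

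In Col-0 low Pi flg22 the split followed the experiments. DFR had 3.69, 5.38 and 6.26 CPM in the A libraries and 47.4, 16.2 and 68.7 CPM in the B libraries, against 9.96, 20.3 and 10.6 CPM in A and 3.0, 6.19 and 6.09 CPM in B without treatment. The 3 flg22 libraries of A were below the 3 untreated ones of A, and those of B were above those of B. UGT79B1 had 0, 0.358 and 0.626 CPM in A and 8.77, 2.60 and 12.4 CPM in B with flg22, against 1.33, 0.731 and 0.991 CPM in A and 0.428, 0.808 and 1.18 CPM in B untreated. The pooled change of UGT79B1 was 2.07 ± 0.95, adjusted p = 0.24 (edgeR).

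Within experiment A alone, 5 members rose with flg22 in Col-0 high Pi, where 5.12% of all genes rose, and none in B alone (0.192%). Those 5 were DFR (2.39, adjusted p = 0.014), LDOX (2.09, 0.015), UGT79B1 (2.05, 0.036), TT19 (1.79, 0.03) and 3AT1 (1.22, 0.016), by edgeR. In Col-0 low Pi it was B alone that gave 5 members that rose, beside 1.3% of all genes, and A alone gave none (2.75%). They were DFR (3.0, adjusted p = 0.0071), LDOX (2.43, 0.02), UGT79B1 (3.03, 0.02), TT19 (2.37, 0.046) and 3AT1 (1.92, 0.008). In A alone their changes there were -1.39, -1.75, -1.41, -2.11 and -0.23. In phr1 phl1 neither experiment alone gave a member that passed in either direction.

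The spread within these groups was wide for the late genes. The SD of log2 CPM over libraries, as the median of the 6 late members, was 1.90 in Col-0 low Pi flg22 and 1.77 in Col-0 high Pi flg22, and 0.444 to 0.997 in the other 10 groups. That of all genes was 0.295 and 0.272 in these flg22 groups. The late members often peaked in the same library. With flg22, 3 of 6 peaked in B3 of phr1 phl1 low Pi, 6 in A1 of phr1 phl1 high Pi, 6 in B3 of Col-0 low Pi and 4 in A3 of Col-0 high Pi, and over all 12 groups the number ran from 2 to 6. CHS peaked in A1 of Col-0 high Pi flg22, at 1035 CPM, and had 224 and 394 CPM in A2 and A3 and 210.2, 274 and 165 CPM in the B libraries. It had 229.6 to 527 CPM in Col-0 high Pi untreated, which overlaps.

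**Figure D3:**
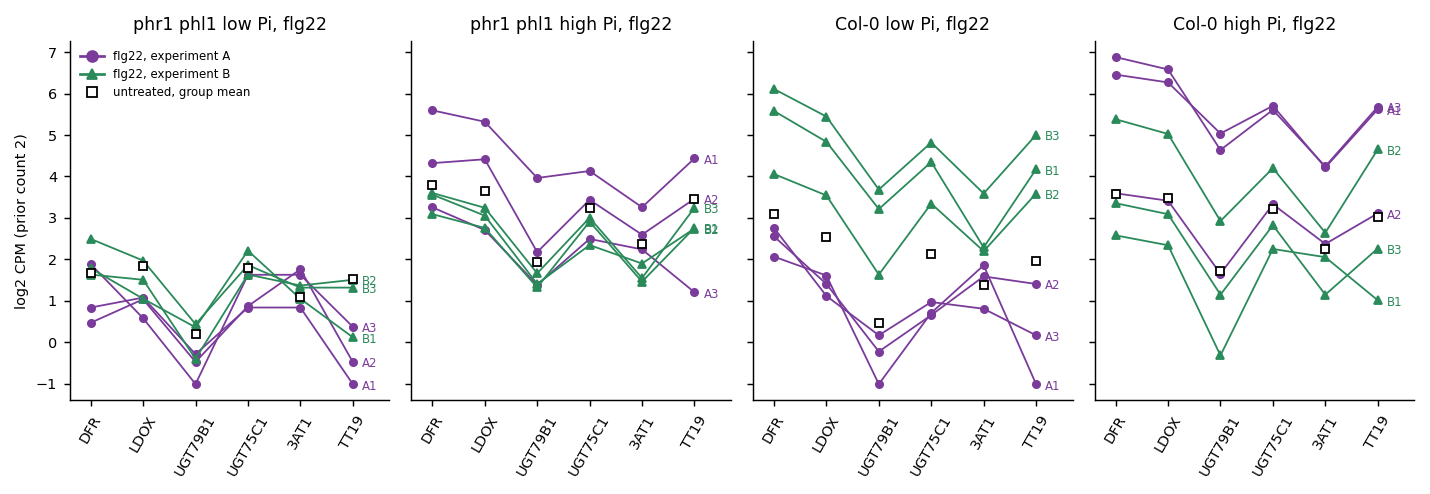
log2 CPM (vertical axis) of the 6 late members in each flg22 library, 1 line a library with its name at the right end, by genotype and Pi; open squares are the untreated group means. Some lines cross, and A1, A3 and B2 of Col-0 high Pi lie above the squares and B1, B2 and B3 of Col-0 low Pi above those of A, where DFR had 3.69 to 6.26 CPM.

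In the mutant the DFR levels with flg22 overlapped the untreated ones at both Pi supplies. DFR had 1.29, 0.888 and 3.19 CPM in A and 2.95, 2.60 and 5.13 CPM in B in phr1 phl1 low Pi flg22, against 2.03, 2.83 and 1.81 CPM in A and 5.39, 1.75 and 3.51 CPM in B untreated. In phr1 phl1 high Pi flg22 it had 47.9, 19.5 and 9.05 CPM in A and 8.02, 11.3 and 11.6 CPM in B, against 22.8, 10.9 and 25.6 CPM in A and 6.61 and 10.3 CPM in B2 and B3 untreated. Library A1 with flg22 was above every untreated one, and the other 5 overlapped them. CHS was the 1 member of 9 whose libraries did not overlap at low Pi, each flg22 library lying below each untreated one, where 0.701% of all genes stood apart downwards. It had 148, 79.5, 149, 106, 98.9 and 125 CPM in phr1 phl1 low Pi flg22 (A1 to A3, then B1 to B3), against 266, 227, 184, 194, 190.0 and 189.8 CPM in phr1 phl1 low Pi untreated. Its log2 change was -0.82 ± 0.33, adjusted p = 0.16 (edgeR), not past the threshold. The interaction of genotype and flg22 was added after the data were seen: 0 of 9 members passed it at low Pi and 0 at high Pi (edgeR, 1 and 2 unadjusted, 0 by DESeq2), where 0.016% and 0% of all genes did. The flg22 responses at low and at high Pi did not differ by the test either, with 0 of 9 members in phr1 phl1 and 0 in Col-0 (0 unadjusted in each, 0 by DESeq2), beside 0.016% and 0.0107% of all genes. In Col-0 the members' median of this difference, low minus high Pi, was -2.73 in A alone and 1.55 in B alone. That of the genotype interaction at low Pi, phr1 phl1 minus Col-0, was 0.70 in A alone and -2.74 in B alone. The fit over both experiments averages these opposite signs, so it does not show that the responses were alike.

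The lists of related genes were read with flg22 as well. Of 8 phenylpropanoid genes 1, 1, 0 and 0 rose in phr1 phl1 low Pi, phr1 phl1 high Pi, Col-0 low Pi and Col-0 high Pi, namely C4H (cinnamate hydroxylase, 0.55) and PAL3 (0.60). None of the 11 other flavonoid enzymes passed in any of the 4. Of 15 regulators 1, 1, 2 and 0 rose and 0, 2, 0 and 0 fell in these settings, where 3.38%, 4.62%, 4.45% and 0.979% of all genes passed in either direction. TTG1, the repeat protein of the complex, rose at low Pi, by 0.34 ± 0.08, adjusted p = 0.0091 in phr1 phl1 and 0.30 ± 0.08, adjusted p = 0.021 in Col-0 (edgeR). EGL3, a bHLH partner of MYB75, fell in phr1 phl1 high Pi, with a log2 change of -0.79 ± 0.17, adjusted p = 0.0023 (edgeR), and so did MYB111 (-1.18). LBD38, a repressor of anthocyanin genes, rose there by 0.50 and in Col-0 low Pi by 0.45. Of 10 root markers 4 fell with flg22 in Col-0 low Pi, with a summed level of 141.9 to 222 CPM, against 191 to 274 CPM untreated, and no green tissue marker passed in any flg22 setting.

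Phosphate supply was compared within genotype and treatment, to ask whether 12 days of low Pi moved the pathway. All 9 fitted changes were negative in each of the 6 comparisons, and some of them passed the test. Members that fell numbered 2 of 9 in phr1 phl1 with MeJA, where 0.899% of all genes fell, 6 in phr1 phl1 with flg22 (5.53%) and 5 in phr1 phl1 untreated (5.63%). They numbered 3 in Col-0 with MeJA (2.72%), 1 with flg22 (7.16%) and 1 untreated (8.46%). In Col-0 the counts of members with flg22 and without treatment are close to the share of all genes. None rose, where 2.12%, 4.75% and 6.65% of all genes rose in phr1 phl1 (MeJA, flg22, untreated) and 2.65%, 7.89% and 7.07% in Col-0. The median log2 changes of the members were -1.20, -1.77 and -1.82 in phr1 phl1 and -1.30, -1.18 and -1.02 in Col-0, in the order MeJA, flg22, untreated. Those of all genes lay between -0.02 and 0.00.

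In untreated phr1 phl1, DFR had 2.03, 2.83, 1.81, 5.39, 1.75 and 3.51 CPM at low Pi (A1 to A3, then B1 to B3), against 22.8, 10.9, 25.6, 6.61 and 10.3 CPM at high Pi (A1 to A3, then B2 and B3). Each low Pi library was below each high Pi one, and the change was -2.43 ± 0.73, adjusted p = 0.02 (edgeR). It was -3.02 in A alone and -1.27 in B alone. The other log2 changes were -1.55 ± 0.44, adjusted p = 0.014 for TT5, -1.82 ± 0.50, adjusted p = 0.011 for F3'H, -2.12 ± 0.73, adjusted p = 0.045 for TT19 and -1.43 ± 0.48, adjusted p = 0.04 for 3AT1. The libraries did not overlap for 4 members (DFR, LDOX, TT19 and 3AT1), where 1.28% of all genes stood apart downwards. With the left-out library in its labelled group 7 members fell. Otherwise 2 members passed without any 1 of A1, A2 or A3 at high Pi or of A1 or A2 at low Pi, and 3 without A3 at low Pi. TT19 was also lost without B2 and 3AT1 without B1 at low Pi.

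In untreated Col-0 the member that fell was TT5, chalcone isomerase. It had 19.5, 22.5, 15.9, 15.4, 16.7 and 9.82 CPM at low Pi, against 74.5, 79.8, 50.2, 22.8, 17.8 and 28.1 CPM at high Pi, in the order A1 to A3 and B1 to B3. Within each experiment each low Pi library was below each high Pi one, while across the experiments they overlapped. The log2 change was -1.40 ± 0.41, adjusted p = 0.015 (edgeR), with -1.80 in A alone and -0.80 in B alone. The call was lost without A1 or A2 at high Pi. DFR had 3.0, 8.08 and 20.3 CPM (lowest, median and highest) at low Pi, against 7.30, 11.8 and 18.1 CPM at high Pi, with a change of -0.32 ± 0.59, adjusted p = 0.78.

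With MeJA, F3'H and 3AT1 fell at low Pi in both genotypes. F3'H had 6.49, 5.95, 6.67, 21.6, 12.0 and 8.94 CPM in phr1 phl1 low Pi MeJA, against 42.0, 26.4, 64.8, 16.5, 19.3 and 17.2 CPM in phr1 phl1 high Pi MeJA, and its change was -1.48 ± 0.40, adjusted p = 0.023 (edgeR). The supplies stood apart in A and overlapped in B, with changes of -2.78 and -0.29. In Col-0 its change was -1.69 ± 0.41, adjusted p = 0.01. 3AT1 changed by -1.28 ± 0.34, adjusted p = 0.019 in phr1 phl1 and -1.30 ± 0.35, adjusted p = 0.021 in Col-0, where UGT79B1 also fell, with -1.66 ± 0.52, adjusted p = 0.046. In phr1 phl1, neither gene passed without A3 at high Pi or without A1, A2 or A3 at low Pi, and 1 passed without A1 at high Pi. In Col-0, 1 member passed without any 1 of the 6 libraries of A, and 6 without B3 at low Pi. UGT79B1 was also lost without B1 at high Pi, and with the left-out library in the fit (adjusted p = 0.051).

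With flg22, 6 members fell at low Pi in phr1 phl1. UGT79B1 had 0.322, 0.222, 0, 0.786, 0.260 and 0.855 CPM at low Pi, against 15.1, 4.02, 2.11, 2.0, 2.15 and 2.67 CPM at high Pi, and each low Pi library was below each high Pi one. Changes were -3.50 ± 1.1, adjusted p = 0.031 for UGT79B1, -3.28 ± 0.87, adjusted p = 0.011 for TT19, -3.03 ± 0.78, adjusted p = 0.0096 for LDOX and -2.74 ± 0.70, adjusted p = 0.0094 for DFR (edgeR). TT5 changed by -1.65 ± 0.43, adjusted p = 0.011 and CHS by -1.44 ± 0.33, adjusted p = 0.0045. In A alone the change of UGT79B1 was -5.27 and in B alone -1.77. Libraries did not overlap for 5 members, beside 2.39% of all genes, and 2 members passed without A1 at high Pi. UGT79B1 was also lost without A1, A2, A3 or B2 at low Pi. In Col-0 with flg22, TT5 fell, with a log2 change of -1.37 ± 0.43, adjusted p = 0.024. There no member passed without A1 at high Pi or without A1, A2 or A3 at low Pi, while 2 passed without A2 at high Pi, 3 without B1 or B3 at high Pi or B1 at low Pi, and 9 without B3 at low Pi.

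The low Pi change differed between the experiments. In A alone, 8, 9 and 8 members fell in phr1 phl1 with MeJA, flg22 and no treatment, where 5.62%, 10.5% and 13.3% of all genes fell. In Col-0, 7, 9 and 4 fell in A alone, beside 10.1%, 13.2% and 17.2%. In B alone none passed in either direction in any of the 6 (edgeR), where 0.122%, 0.0745% and 0.0851% of all genes fell in phr1 phl1 and 0.0426%, 0.66% and 0.165% in Col-0. Far fewer genes of any kind passed in B.

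The difference between experiments was itself tested, after the data were seen, as the low Pi change in A minus that in B. It passed for 5, 1 and 2 members in phr1 phl1 (MeJA, flg22, untreated), beside 2.76%, 3% and 10.3% of all genes. In Col-0 it passed for 7, 9 and 0 members, beside 6.48%, 7.76% and 15.3%. In Col-0 with flg22 the differences ran from -2.14 ± 0.52, adjusted p = 0.0049 for CHS to -6.60 ± 1.17, adjusted p = 8.6e-05 for UGT79B1 (edgeR). LDOX there had 2.55, 2.15 and 1.67 CPM at low Pi, against 76.7, 10.2 and 95.4 CPM at high Pi in A. In B it had 28.1, 11.2 and 43.1 CPM at low Pi, against 4.56, 32.1 and 8.02 CPM at high Pi. The groups stood apart in A and overlapped in B.

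UGT75C1 with MeJA shows the same contrast at a higher level. In Col-0 it had 10.4, 16.0 and 5.57 CPM at low Pi, against 146, 104 and 129.8 CPM at high Pi in A. In B it had 57.8, 34.1 and 54.8 CPM at low Pi, against 57.2, 37.9 and 35.9 CPM at high Pi, where the supplies overlapped. The changes were -3.43 in A, adjusted p = 2.7e-06, and 0.23 in B, adjusted p = 0.96 (edgeR), and their difference was -3.72 ± 0.64, adjusted p = 6.7e-05. DFR and CHS were not past the threshold for this difference in MeJA, with -1.24 ± 0.66, adjusted p = 0.31 and -1.06 ± 0.51, adjusted p = 0.25 in Col-0.

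**Figure D4:**
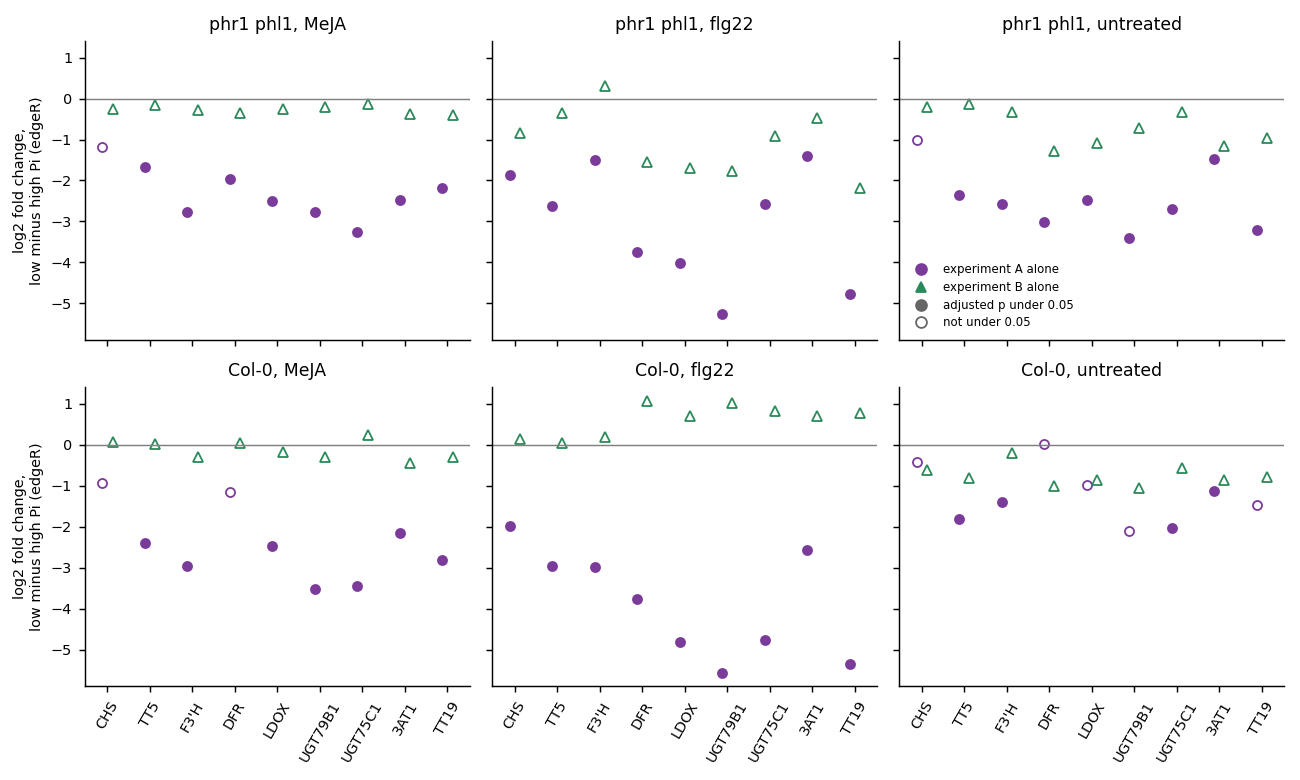
log2 fold change of each tested member at low against high Pi (vertical axis, edgeR) in experiment A alone, circles, and B alone, triangles, 1 panel for each genotype and treatment; filled points have an adjusted p under 0.05. The A points lie below the B points except for CHS and DFR in untreated Col-0, reaching -5.57 for UGT79B1 in Col-0 with flg22, where B is at 1.03, and no B point is filled.

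The related lists were read in the same comparisons, in the fit over both experiments only. Their changes in A and in B alone are not given, so whether they differed between the experiments is not shown. Of the 11 other flavonoid enzymes, 2, 7 and 6 fell in phr1 phl1 (MeJA, flg22, untreated) and 4, 6 and 5 in Col-0, and none rose. SAT, a sinapoyltransferase that acylates anthocyanin, fell in all 6, with log2 changes of -1.36, -1.59 and -1.53 in phr1 phl1 and -1.57, -1.28 and -1.30 in Col-0. UGT89C1, a flavonol rhamnosyltransferase, fell (-1.97 in untreated phr1 phl1 and -1.65 in untreated Col-0), and FLS1, flavonol synthase, fell with -1.88 ± 0.45, adjusted p = 0.0041 in untreated phr1 phl1 (edgeR). Of the 8 phenylpropanoid genes 0, 3 and 2 fell in phr1 phl1 and 1, 4 and 4 in Col-0. Of all genes, 0.899%, 5.53% and 5.63% fell in phr1 phl1 and 2.72%, 7.16% and 8.46% in Col-0. 4CL3, the ligase tied to flavonoids, fell, with -2.48 ± 0.62, adjusted p = 0.0052 in untreated phr1 phl1 and -2.39 ± 0.58, adjusted p = 0.0031 in untreated Col-0, and PAL2 fell too (-1.06 and -1.20).

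Some regulators rose and others fell at low Pi in the fit over both experiments, and their changes in A and in B alone are not given. Of 15 tested, 0, 0 and 3 fell and 0, 2 and 1 rose in phr1 phl1 (MeJA, flg22, untreated), and 3, 2 and 2 fell and 0, 2 and 2 rose in Col-0. Of all genes, 0.899%, 5.53% and 5.63% fell and 2.12%, 4.75% and 6.65% rose in phr1 phl1. In Col-0, 2.72%, 7.16% and 8.46% fell and 2.65%, 7.89% and 7.07% rose. Several of the regulator counts are close to these shares. MYBL2, a repressor of the pigment genes, rose by 1.13 ± 0.30, adjusted p = 0.0083 in untreated phr1 phl1 and 1.34 ± 0.28, adjusted p = 0.00055 in untreated Col-0 (edgeR). MYB111 fell in the same comparisons (-1.73 and -1.90). MYB75 fell in untreated Col-0, with -3.21 ± 0.88, adjusted p = 0.0088, and TT8 with -2.75 ± 0.88, adjusted p = 0.03 in untreated phr1 phl1. TTG1, the repeat protein that works with these activators, went the other way in Col-0. It rose by 0.30 ± 0.08, adjusted p = 0.0077 untreated and 0.45 ± 0.08, adjusted p = 0.00012 with flg22 (edgeR). Of 10 root markers, 6 rose and 1 fell at low Pi in untreated Col-0, with a summed level of 191 to 274 CPM, against 137.9 to 242 CPM at high Pi. The green tissue list summed to 65248 to 98347 CPM in untreated Col-0 low Pi, against 66602 to 86153 CPM at high Pi. It changed by 3 higher and 0 lower of 12 there, and by 1 higher and 3 lower in untreated phr1 phl1. With flg22 the green tissue list changed by 1 higher and 2 lower in phr1 phl1, summing to 57895 to 76029 CPM at low Pi, against 56139 to 66023 CPM at high Pi. It changed by 3 higher and 0 lower in Col-0 with flg22, summing to 65762 to 107320 CPM at low Pi, against 49161 to 85524 CPM at high Pi. With MeJA, 2 green tissue markers and 1 root marker rose at low Pi in Col-0, and none passed in phr1 phl1. No other root marker passed at low Pi. The part of these markers in the low Pi results was not tested.

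The mutant was compared with the wild type within Pi and treatment. At low Pi no member passed with MeJA (4.96% of all genes did) or untreated (3.69%), and 1 fell with flg22, where 0.155% of all genes fell and 0.476% passed in either direction. At high Pi none passed with MeJA (0.134%), flg22 (0.177%) or untreated (0.0642%). By edgeR, unadjusted p-values under 0.05 were found for 1, 1, 0, 5 and 0 of 9 members in these 5 comparisons without a call (low Pi MeJA and untreated, high Pi MeJA, flg22 and untreated), and DESeq2 called 0 in each. The share of all genes with such an unadjusted p is not given, so these counts have nothing to be set against. All 9 fitted changes were negative in the other comparisons and 8 of 9 positive in untreated seedlings at high Pi, with medians of -0.37, -1.95 and -0.47 at low Pi (MeJA, flg22, untreated) and -0.41, -1.14 and 0.22 at high Pi.

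The member that fell was DFR, in phr1 phl1 low Pi flg22. It had 1.29, 0.888, 3.19, 2.95, 2.60 and 5.13 CPM there, against 3.69, 5.38, 6.26, 47.4, 16.2 and 68.7 CPM in Col-0 low Pi flg22 (A1 to A3, then B1 to B3). Within each experiment every phr1 phl1 library was below every Col-0 one, and across experiments B3 of phr1 phl1 lay above A1 of Col-0. The change was -3.20 ± 0.69, adjusted p = 0.012 (edgeR), and the call was lost without B1 or B3 of Col-0 or A2 of phr1 phl1. In B alone 6 members fell, where 0.138% of all genes fell, and in A alone none passed in either direction (0.746% of all genes fell). Those 6 were CHS (-1.13, adjusted p = 0.023), DFR (-3.62, 0.0045), LDOX (-3.48, 0.0064), UGT79B1 (-3.47, 0.024), TT19 (-3.65, 0.019) and 3AT1 (-1.79, 0.024). DESeq2 called 4 members over both experiments, and the count by edgeR was 3 without any 1 of the A libraries of Col-0 and 2 without B3 of phr1 phl1.

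The library levels of TT19, the transport protein, were lower still. It had 0, 0.222 and 0.797 CPM in A and 0.589, 2.34 and 1.99 CPM in B in phr1 phl1 low Pi flg22. In Col-0 low Pi flg22 it had 0, 2.15 and 0.626 CPM in A and 17.5, 11.5 and 31.6 CPM in B. The genotypes overlapped in A and stood apart in B. The change over both experiments was -3.37 ± 0.86, adjusted p = 0.052 (edgeR), just outside the threshold.

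The low Pi change did not differ between the genotypes by the test for any member: 0 of 9 passed with MeJA, 0 with flg22 (added after the data were seen) and 0 untreated (edgeR, 0, 1 and 1 unadjusted, 0 by DESeq2), beside 0.0749%, 0% and 0.519% of all genes. With flg22 the members' median of this difference, phr1 phl1 minus Col-0, was 0.59 in A alone and -1.75 in B alone, and the fit averages over both. Of 12 green tissue markers, 8 fell in phr1 phl1 against Col-0 at low Pi with MeJA and 5 untreated, and 5 of 10 root markers fell untreated. Of all genes, 4.96% with MeJA and 3.69% untreated passed there in either direction. The green summed level was 40160 to 51433 CPM in phr1 phl1 low Pi MeJA, against 51140 to 108970 CPM in Col-0 low Pi MeJA, and the root list summed to 138 to 170.2 CPM in phr1 phl1 low Pi untreated, against 191 to 274 CPM in Col-0 low Pi untreated. The part of these markers in the genotype comparisons was not tested.

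Outside the set, the genes whose 12 group means of log2 CPM were most like the mean pattern of the 9 tested members were named by a fixed rule, as a description. They were 5MAT (Pearson r = 0.988), MYB75 (0.986), APS3 (0.984), AT2G31790 (0.981), CINV2 (0.980), PUT4 (0.980), AT4G27560 (0.979), SAL1 (0.979), TT8 (0.977) and GSR2 (0.973). 5MAT is an enzyme of the same pigments, and MYB75 and TT8 are regulators of the late genes. The 12 means share libraries and depth.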

How the data were processed

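RNA was measured by sequencing of cDNA from whole seedlings, in 72 libraries of 12 groups, from 1000 ng of total RNA each with a kit that does not keep strand, per the labels' protocols. The authors deposited whole-number read counts per locus for 27206 loci, not normalized. Per the submitters' processing notes, the build was TAIR10 and the tools included HTSeq 0.6.1p1, TopHat2 2.1.1, cutadapt 1.3 and CASAVA 1.8. How multiply mapped reads and reads in overlapping genes were treated is not given in the sources used here.

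Groups came from the labels, and 71 libraries entered the fit. Genes were kept by edgeR's expression filter with a minimum count of 10, which left 18693. Library sizes were scaled by TMM, and edgeR 4.0.16 in R 4.3.3 fitted group plus experiment (A or B) with robust quasi-likelihood dispersions (common coefficient of biological variation 0.173). Tests were two-sided, with Benjamini-Hochberg adjustment over all 18693 genes and a threshold of 0.05. There were 20 comparisons of 2 groups and 8 interactions, and 3 interactions and the test of experiment A against B were added after the data were seen. The SE is that of the log2 fold change, from the F statistic. Levels are CPM, computed from the counts over the scaled library size. Correlations used log2 CPM with a prior count of 2. Depth limits F3H in all groups, and UGT79B1 and TT19 in libraries with few counts. PCR copies were not marked by molecular identifiers.

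The alternatives were DESeq2 1.42.0, no filter, a block for the replicate number, each experiment alone, the compared groups alone, all 72 libraries, and leaving out each of 71 libraries in turn. The scripts were tested on simulated data. Libraries of the same group differed by more than sampling noise in all 175 pairs, which include pairs across experiments A and B. Replicate numbers were not treated as pairs: over 385 pairs of libraries with the same number the median correlation of deviations from the group means was 0.0085.

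The members and the gene lists were chosen with earlier results of these data known, so that no count over them is independent support. All 10 members are named. From each other list, up to 4 genes a comparison are named, those past the threshold with the largest absolute log2 change, of which some are given here. The 10 genes most like the members were ranked over the 9 tested ones, since F3H was not tested, among genes whose log2 CPM averaged 1 or more.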

Additional observations from a re-analysis of the deposited data

Results flagged for a closer look

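The left-out library, B1 of the group labelled phr1 phl1 high Pi untreated, was set beside the 23 other untreated libraries. It held 169.8 CPM of DFR, against 1.75 to 25.6 CPM in the others, 94.4 CPM of LDOX (1.22 to 21.6), 66.7 CPM of TT19 (1.04 to 17) and 30.3 CPM of UGT75C1 (1.04 to 21.3). It held 23.2 CPM of UGT79B1 (0.259 to 7.73), 24.8 CPM of F3'H (1.95 to 19.6) and 14.2 CPM of 3AT1 (0.809 to 7.38). All 7 were above every other untreated library, while CHS at 367 CPM and TT5 at 29.5 CPM lay within their range. Its PHR1 and PHL1 levels were in the range of Col-0.

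Of 108 sets of 6 or 5 libraries (9 genes in 12 groups), 3 held a library far from the rest by Dixon's test, which chance gives in about 1 of 20 sets. CHS was low in Col-0 low Pi MeJA A1 (240.9 CPM, against 470.0 to 653 CPM). LDOX was low in phr1 phl1 low Pi untreated A1 (1.22 CPM, against 3.12 to 4.85 CPM). UGT79B1 was high in phr1 phl1 high Pi flg22 A1 (15.1 CPM, against 2.0 to 4.02 CPM).

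The low Pi change of some members differed between experiments A and B by edgeR's test of the difference (A minus B, log2). In untreated Col-0 no member passed, while 15.3% of all genes did. Of all genes, 2.76%, 3% and 10.3% passed in phr1 phl1 (MeJA, flg22, untreated), and 6.48% and 7.76% in Col-0 with MeJA and flg22. In phr1 phl1 with MeJA the differences were -3.13 for UGT75C1, -2.56 for UGT79B1, -2.49 for F3'H, -2.24 for LDOX and -2.09 for 3AT1. In phr1 phl1 with flg22 it was -2.31 for TT5, and in untreated phr1 phl1 -2.31 for F3'H and -2.26 for TT5. In Col-0 with MeJA it was -3.72 for UGT75C1, -3.26 for UGT79B1, -2.71 for F3'H, -2.56 for TT19, -2.45 for TT5, -2.34 for LDOX and -1.77 for 3AT1. In Col-0 with flg22 all 9 members passed, with -6.60 for UGT79B1, -6.13 for TT19, -5.61 for UGT75C1, -5.52 for LDOX, -4.85 for DFR, -3.30 for 3AT1, -3.18 for F3'H, -3.03 for TT5 and -2.14 for CHS. What set the experiments apart was not tested.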

How the results depend on the processing

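The MeJA counts kept within 1.5 times the values given under every alternative but experiment A alone in Col-0 low Pi (5). With flg22, 5 members passed in Col-0 high Pi in A alone and 5 in Col-0 low Pi in B alone, DESeq2 called 1 in Col-0 high Pi, and the compared groups alone gave 1 in phr1 phl1 low Pi. Without 1 library the Col-0 high Pi flg22 count was 0 to 1.

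For low against high Pi, A alone gave 8 members in phr1 phl1 MeJA, 8 in phr1 phl1 untreated, 7 in Col-0 MeJA, 9 in Col-0 flg22 and 4 in Col-0 untreated, and B alone gave 0 in each of the 6. The compared groups alone gave 1 in phr1 phl1 MeJA, 9 in phr1 phl1 untreated, 1 in Col-0 MeJA, 0 in Col-0 flg22 and 7 in Col-0 untreated. How many of all genes those fits called is not given, so these counts are not a result about the members. DESeq2 called 2 in Col-0 flg22. In untreated phr1 phl1, no filter gave 3 and the fit with the replicate number as a block gave 3. The block moved no other count by over 1.5 times, and 3 of 49 called changes were lost under it. What libraries of the same number share besides it is not stated in the labels. Of same-number pairs 33.2% had a correlation over 0.1, and 21 of 71 libraries correlated best with their own number. The median correlation was 0.0085 in same-number pairs and -0.0016 in 770 other pairs. Without 1 library the counts ran over 0 to 3 in phr1 phl1 MeJA, 2 to 6 in phr1 phl1 flg22, 2 to 6 in phr1 phl1 untreated, 1 to 6 in Col-0 MeJA, 0 to 9 in Col-0 flg22 and 0 to 1 in Col-0 untreated. The change of TT5 at low Pi in Col-0 with flg22 turned to 0.051 in B alone (adjusted p = 0.98).

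For phr1 phl1 against Col-0 at low Pi with flg22, A alone gave 0, B alone 6, DESeq2 4, the compared groups alone 2 and leaving out 1 library 0 to 3. The compared groups alone gave 1 at low Pi untreated, 1 at high Pi MeJA and 1 at low Pi MeJA. For the alternatives other than each experiment alone, the share of all genes called is not given. Their counts therefore cannot be set against all genes. The causes were not tested. Of 49 called changes, 17 were lost in B alone, 7 in A alone, 4 with the compared groups alone, 3 without the filter, 2 with all 72 libraries and 1 by DESeq2.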
